A study of Mus musculus with 5 samples.

Results

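Addition of the MEK inhibitor PD0325901 and of leukemia inhibitory factor (LIF) to GSK3 inhibition was examined in E3 cells, a line of mouse epiblast stem cells, by comparing 1 array of cells given all 3 agents (PCL) with 1 array of cells given the GSK3 inhibitor alone (CH). Members were the probes with a gene name whose detection p-value was under 0.01 on at least 1 of these 2 arrays: 10348 of the 25697 probes on the array, for 7578 of 16593 genes. A gene is represented by its probe with the highest mean level over the 5 arrays of the series, and 12 further genes had only a dimmer probe among the members. Of the 7578 genes, 6946 were detected on both arrays, 267 on the PCL array alone and 365 on the CH array alone. At the threshold, the 38 probes just inside it had a detection p of 0.00877 and intensities of 100.9 to 107.4 before normalization, and the 135 probes just outside it had a p of 0.01003 and intensities of 99.96 to 106.7.

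PCL cells received 1 µM PD0325901, 3 µM CHIR99021, which inhibits GSK3, and 1000 U/ml LIF, and CH cells received 3 µM CHIR99021. Single-agent cultures with 1 µM PD0325901 (PD) or 1000 U/ml LIF (LIF) and a culture with no agent (untreated) completed the series. All 5 cultures had grown on inactivated CF1 mouse embryonic fibroblasts with 5 ng/ml FGF2, and all were changed at semiconfluence to medium without added FGF2 for 12 h before RNA was isolated. All comparisons thus concern 1 cell line, 1 time point and 1 culture per condition, with feeder RNA in the sample. No condition had a second array, so no difference below could be checked in a replicate or tested. Each ± is a standard error in log2 units computed from the beads of a probe, and it holds none of the variation between cultures.

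PD0325901 blocks the kinase MEK, which activates ERK downstream of FGF receptors, and ERK in turn drives immediate early genes, ETS factors and its own feedback inhibitors. Inhibition of GSK3 stabilises β-catenin, which with TCF factors activates Wnt target genes, and in epiblast cells genes of the primitive streak, where mesoderm and endoderm form, are among those that respond to Wnt. LIF signals through gp130 and JAK kinases to STAT3, whose feedback inhibitor is Socs3. The same 3 agents are used to keep mouse embryonic stem cells in the naive state, whereas epiblast stem cells represent the later, primed state and depend on FGF and activin.

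Of 9 markers fixed for epiblast stem cells, 8 were on the array and all 8 were detected on both arrays, among them Pou5f1 with log2 levels of 11.96 in PCL and 12.43 in CH and Nanog with 10.80 in PCL and 10.55 in CH. The arrays had 10389 (PCL) and 10538 (CH) detected probes, and the other 3 had 10610 to 10898. Feeder fibroblast markers were also present: 25 (PCL) and 27 (CH) of 38 on the array were detected, and their summed intensity was 15862 in PCL, 14521 in CH, 18610 in PD, 14547 in LIF and 14062 in untreated cells.

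The promoters of 3 genes on which the results turn are shown because each holds a motif of one of the pathways. They are from RefSeq (GRCm38.p6), run from 250 bases before to 50 bases after the start site in the direction of the gene, and carry the motif match in capitals. Socs3, the STAT3 feedback gene (chr11:117969317-117969616, minus strand), holds TTCTTAGAA, of the STAT form TTCNNNGAA, at positions −154 to −146 from the start. Sp5 (chr2:70474673-70474972, plus strand) holds the TCF motif CTTTGAT at −104 to −98, and 1 of the starts of Tnfrsf19 (chr14:61037938-61038237, minus strand) holds it on the other strand, as ATCAAAG, at −202 to −196. Sp5 and Tnfrsf19 are Wnt target genes.
Socs3: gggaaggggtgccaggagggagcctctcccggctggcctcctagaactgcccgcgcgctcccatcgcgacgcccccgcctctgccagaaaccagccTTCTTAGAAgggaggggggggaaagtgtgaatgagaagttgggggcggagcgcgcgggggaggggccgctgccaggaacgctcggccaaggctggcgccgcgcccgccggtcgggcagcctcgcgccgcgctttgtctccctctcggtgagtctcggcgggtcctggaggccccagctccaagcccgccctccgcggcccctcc
Sp5: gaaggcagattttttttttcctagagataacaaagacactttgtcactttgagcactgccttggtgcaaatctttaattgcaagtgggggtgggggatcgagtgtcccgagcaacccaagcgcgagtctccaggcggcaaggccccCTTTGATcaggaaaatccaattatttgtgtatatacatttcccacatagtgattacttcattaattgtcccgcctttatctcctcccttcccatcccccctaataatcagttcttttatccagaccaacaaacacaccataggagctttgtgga
Tnfrsf19: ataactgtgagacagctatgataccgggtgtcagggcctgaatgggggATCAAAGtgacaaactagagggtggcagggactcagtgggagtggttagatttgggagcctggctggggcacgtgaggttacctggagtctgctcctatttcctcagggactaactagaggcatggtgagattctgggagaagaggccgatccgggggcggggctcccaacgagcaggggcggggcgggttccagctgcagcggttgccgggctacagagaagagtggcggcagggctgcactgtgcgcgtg

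Over 32851 promoters of this length, 8.3% held TTCNNNGAA and 3.73% held CTTTGAT on either strand. These shares count promoters, whereas the counts that follow are of genes with a match at any of their starts. Of the 24 CH-induced genes with a promoter sequence (defined below), 2 held CTTTGAT, the 2 printed here. TTCNNNGAA was held by 1 of the 24, Tnfrsf19. Of the 14 genes at least 2-fold higher in PCL that had one, 2 held TTCNNNGAA, Socs3 and Ap3b2, as did 2 of the 28 at least 2-fold lower, Dnmt3l and Pdyn (Pdyn was named after its values were seen). CTTTGAT was in 0 of these 14 and 0 of these 28 genes. The motif CCWWWWWWGG, with W for A or T, was also searched and was in 1.63% of promoters. It was in 0 of the 24, 0 of the 28 and 1 of the 14 genes, Tal2 (named after its values were seen). A match describes the letters only.

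Most genes had similar levels in PCL and CH: the median log2 difference of PCL over CH was 0.01 (SD 0.32 over genes), and 93.2% of the 7578 genes lay within 1.5-fold. In measured values 25 genes (0.330%) were higher in PCL by 2-fold or more, and 39 (0.515%) were lower by as much. At 1.5-fold the counts were 228 higher (3.01%) and 288 lower (3.80%). Where a probe was not detected on 1 array only a bound is given, with that array set to the higher of its lowest detected level and its own level. At these bounds 19 genes (0.251%) were higher and 31 (0.409%) lower. The split between directions depended on the scaling: with median in place of quantile normalization, 32 were higher and 33 lower. The differences ran from −3.07 to 1.55 on the log2 scale, while the median bead standard error was 0.13. Another member probe existed for 14 of the genes past 2-fold; all 14 differed in the same direction by it, and 5 were also past 2-fold.

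**Figure D1:**
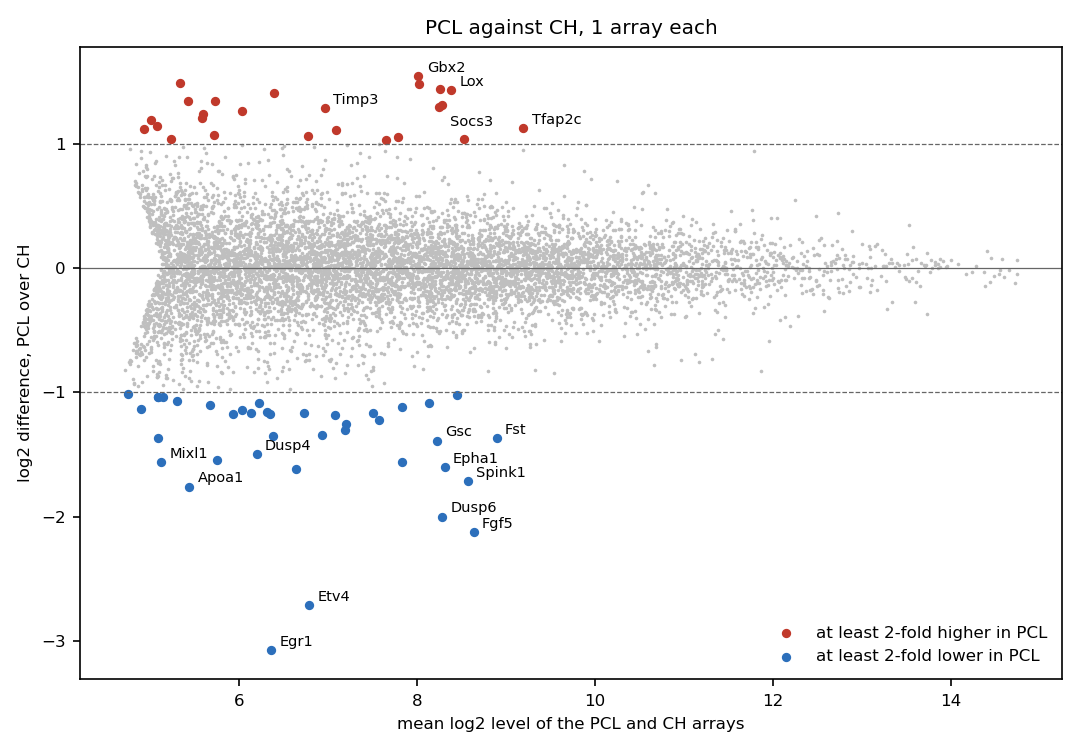
Log2 difference of PCL over CH (vertical axis) against the mean log2 level of both arrays (horizontal axis) for 7578 genes, 1 array each; dashed lines mark 2-fold. The 39 lower genes reach −3.07 (Egr1) and the 25 higher genes reach 1.55 (Gbx2).

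Genes that respond to ERK included those with the lowest values of PCL over CH. Of 35 members of a list of ERK targets and feedback genes on the array, 24 were compared. At least 2-fold lower were 6 of the 24, against 0.515% of all 7578 genes. At least 2-fold higher were 0, against 0.330%. The median was −0.47 (−0.43 at the bounds), against 0.01 over all genes. Below 0 lay 18 of 24, against 3715 of all 7578 genes. Egr1, an immediate early transcription factor, had log2 levels of 4.82 (not detected) in PCL and 7.90 in CH. It was at least 6.65-fold lower in PCL, and its levels were 4.98 (not detected) in PD, 7.37 in LIF and 7.78 in untreated cells. The low arrays were thus the 2 that had received the MEK inhibitor.

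The ETS factors Etv4 and Etv5 are transcribed in response to FGF signalling. Etv4 had log2 levels of 5.44 in PCL, 8.15 in CH, 5.46 in PD, 7.25 in LIF and 7.53 in untreated cells, a difference of PCL over CH of −2.71 ± 0.14. Etv5 was 6.54 in PCL and 7.84 in CH, a difference of −1.30 ± 0.19, and PD over untreated was −0.33. Etv1, of the same family, had a difference of −0.69 ± 0.16.

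The phosphatases Dusp6 and Dusp4 dephosphorylate ERK and other MAP kinases and are themselves ERK-induced. Dusp6 had log2 levels of 7.28 in PCL, 9.28 in CH, 7.84 in PD, 8.69 in LIF and 9.13 in untreated cells, a difference of −2.00 ± 0.12, and its other probe gave −1.70. Dusp4 was 5.45 in PCL and 6.95 in CH, a difference of −1.50 ± 0.12. Spry4, a feedback inhibitor of receptor tyrosine kinases, had a difference of −0.58 ± 0.22, and Spry2 was not detected on either array. The 2 members at least 1.5-fold higher were the AP-1 genes Jun and Jund, at 0.59 and 0.84, which were named after their values were seen.

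Fgf5, a ligand and marker of the primed epiblast, had log2 levels of 7.58 in PCL, 9.70 in CH, 7.82 in PD, 8.44 in LIF and 8.73 in untreated cells, a difference of −2.12 ± 0.11. CH was the highest of the 5 arrays for Fgf5 and PCL the lowest. Dnmt3l, the cofactor of the de novo DNA methyltransferases, was 6.93 in PCL and 8.09 in CH (−1.16 ± 0.12; other probe −1.15). The protein kinase gene Pkdcc was 5.84 in PCL and 7.45 in CH, a difference of −1.62 ± 0.18, but its other probe gave −0.49.

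Genes induced by CH were partly curbed and partly kept. A gene was called CH-induced when CH was at least 2-fold above untreated at the bound with the probe detected in CH, which 32 of 7699 genes met (0.416%). It was then called curbed when PCL was at least 1.5-fold under CH, raised further when at least 1.5-fold over, and kept in between. Of the 32 genes 12 were curbed (37.5%), 17 kept and 3 raised further, and in 19 PCL was at least 2-fold above untreated. Over the 7652 genes compared between PCL and untreated cells 0.706% were, but the untreated array chose the 32 genes and also enters this count, so the shares are not comparable. Over all 7578 genes, 2.64% were at least 1.5-fold lower in PCL at the bound and 2.11% higher. The same CH array defines both the induction and the drop, so a gene read too high on that array would enter as induced and then as curbed, and how much of the count this makes up was not tested.

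**Figure D2:**
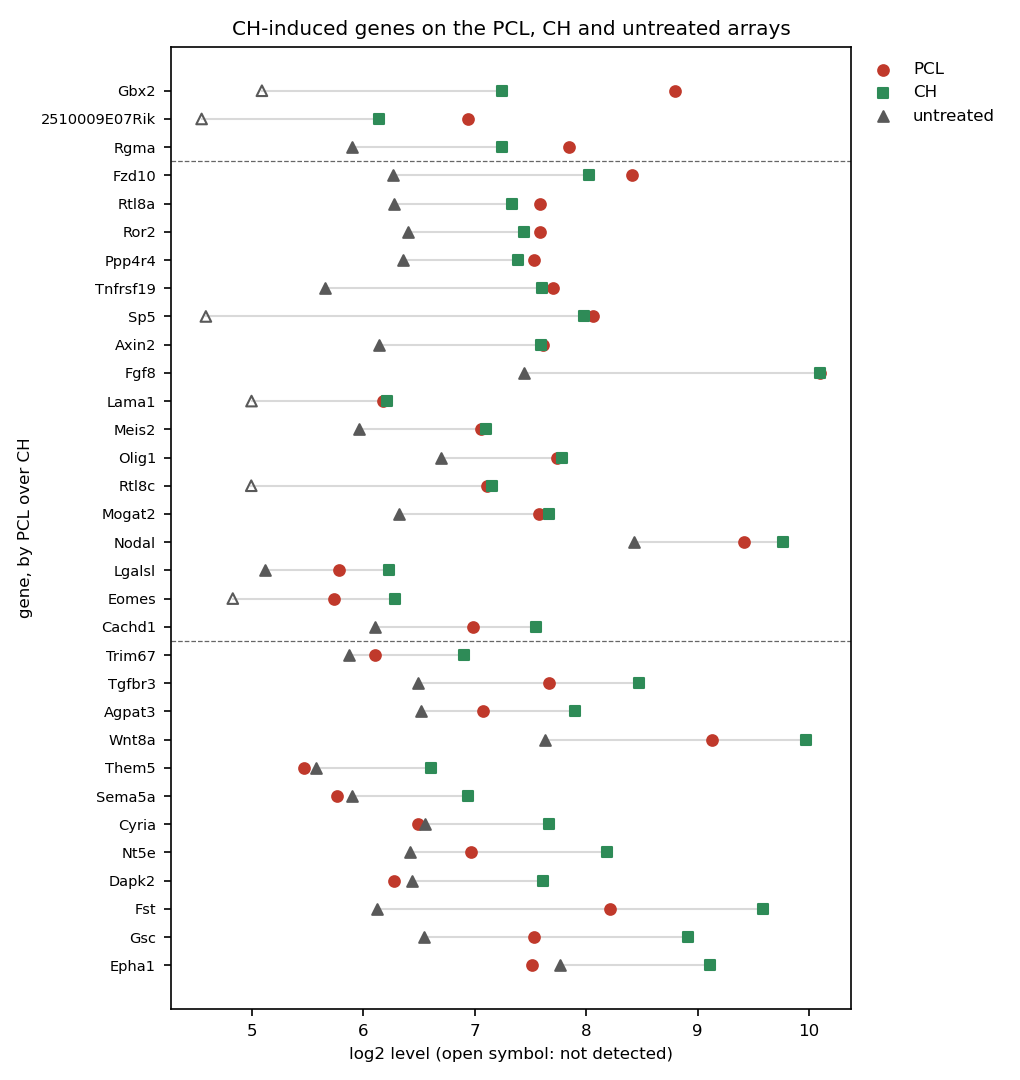
Log2 levels (horizontal axis) of the 32 CH-induced genes on the PCL, CH and untreated arrays, ordered by PCL over CH, with open symbols where the probe was not detected; dashed lines part the 3 genes raised further (top), the 17 kept and the 12 curbed (bottom). Fgf8, Axin2 and Sp5 have nearly the same level in PCL and CH, whereas Fst, Gsc and Epha1 have differences of −1.37, −1.39 and −1.60.

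The kept genes included direct targets and feedback genes of the Wnt pathway. Axin2, a component of the complex that degrades β-catenin, had log2 levels of 7.61 in PCL, 7.59 in CH, 6.43 in PD, 5.97 in LIF and 6.14 in untreated cells, a difference of PCL over CH of 0.02 ± 0.12. Sp5, a transcription factor gene with the TCF motif shown above, was 8.06 in PCL and 7.98 in CH and was not detected in PD, LIF or untreated cells. Its difference was 0.08 ± 0.10, and it was at least 7.35-fold higher in CH than in untreated cells. Tnfrsf19, a receptor of the TNF receptor family, was 7.70 in PCL and 7.60 in CH, a difference of 0.09 ± 0.16. For these 3 genes the difference was smaller than its bead standard error.

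Fgf8, an FGF ligand of the primitive streak, had log2 levels of 10.10 in PCL, 10.10 in CH, 7.24 in PD, 6.04 in LIF and 7.44 in untreated cells. Its difference was 0.00 ± 0.09, although LIF alone was 1.40 below untreated. The Wnt receptor gene Fzd10 was 8.41 in PCL and 8.02 in CH, a difference of 0.39 ± 0.09. Nodal, the ligand that patterns the epiblast through activin receptors, was 9.41 in PCL and 9.76 in CH, a difference of −0.35 ± 0.09. Near the 1.5-fold limit lay Eomes, a T-box factor of the streak, at −0.55 ± 0.20, and Cachd1, at −0.56 ± 0.14. Lama1, Lgalsl, Meis2, Mogat2, Olig1 and Rtl8c were also kept, as were Rtl8a, Ppp4r4 and Ror2, which were named after their values were seen.

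Among the curbed genes were regulators of the organizer, the signalling centre of the anterior streak. Gsc, its homeobox factor, had log2 levels of 7.53 in PCL, 8.92 in CH, 6.02 in PD, 5.65 in LIF and 6.54 in untreated cells, a difference of −1.39 ± 0.09. Fst, whose product binds and blocks activin, was 8.21 in PCL, 9.58 in CH, 5.64 in PD, 5.69 in LIF and 6.12 in untreated cells, a difference of −1.37 ± 0.13. Wnt8a, a Wnt ligand of the streak, was 9.12 in PCL, 9.97 in CH, 6.85 in PD, 5.58 in LIF and 7.63 in untreated cells, a difference of −0.85 ± 0.11. For these 3 genes PCL lay below CH and above untreated.

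The receptor tyrosine kinase gene Epha1 was 7.51 in PCL, 9.11 in CH and 7.77 in untreated cells, a difference of −1.60 ± 0.14, and its other probes gave −1.64 to −0.89. Nt5e, the cell surface 5′-nucleotidase, was 6.96 in PCL and 8.18 in CH, a difference of −1.22 ± 0.14, with −0.44 from its other probe. The TGF-β co-receptor gene Tgfbr3 was 7.66 in PCL and 8.47 in CH, at −0.81 ± 0.17, with −0.31 from its other probe. Dapk2, Cyria and Agpat3 were curbed at −1.34, −1.18 and −0.83, and Sema5a, Them5 and Trim67, named after their values were seen, at −1.17, −1.14 and −0.80. In 5 of the 12 PCL lay below untreated: Epha1 (−0.25 ± 0.13), Dapk2 (−0.16 ± 0.13), Cyria (−0.07 ± 0.14), Sema5a (−0.14 ± 0.19) and Them5 (−0.11 ± 0.24). For Cyria, Sema5a and Them5 this difference was smaller than its bead standard error. PD alone was below untreated in 10 of the 12 curbed genes (median −0.60) and LIF alone in 9 (median −0.31), against 6 and 9 of the 17 kept genes (medians 0.18 and −0.13). Over all 7578 genes PD was below untreated in 49.6% and LIF in 44.5%, but the untreated array also chose the CH-induced genes. The kept genes Sp5, Eomes and Rtl8c were not detected in PD, LIF or untreated cells, so the signs of their differences are unreliable.

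Gbx2, a homeobox gene linked to LIF and to naive pluripotency, was the gene most above CH in PCL. It had log2 levels of 8.79 in PCL and 7.25 in CH and was not detected in PD, LIF or untreated cells, and its difference was 1.55 ± 0.08. The GPI-linked guidance receptor gene Rgma was 7.84 in PCL and 7.24 in CH, a difference of 0.60 ± 0.12. The RIKEN clone gene 2510009E07Rik, named after its values were seen, was the other gene raised further, at 0.80 ± 0.15.

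Of 32 members in a list of primitive streak and organizer genes on the array, 20 were compared; 4 were at least 2-fold lower in PCL in measured values, 3 at the bounds, and 0 at least 2-fold higher. The 4 were Mixl1, Gsc, Fst and Chrd. Among all 7578 genes 0.515% were at least 2-fold lower in measured values and 0.409% at the bounds. Mixl1, a homeobox gene of the streak, was detected in CH alone, at 5.91, and was at least 1.67-fold lower in PCL. Chrd, an antagonist of BMP, was 6.15 in PCL and 7.32 in CH, a difference of −1.16 ± 0.10. The list median was −0.49 in measured values, −0.17 at the bounds and −0.37 over the members detected on both arrays. Below 0 lay 16 of 20 members, against 3715 of all 7578 genes. Of the 20, 7 were detected on 1 array only. For a member detected in CH alone, a value below 0 follows largely from the detection filter. The list of Wnt targets had 12 members compared of 27 on the array, with 0 past 2-fold and a median of −0.42 (−0.26 at the bounds). In measured values 3 were at least 1.5-fold lower (Wnt8a, Apcdd1 and Ccnd2) and 1 at least 1.5-fold higher (Wif1). The shares over all 7578 genes were 3.80% lower and 3.01% higher. Apcdd1, not detected in PCL, was at least 1.62-fold lower, and Wif1, not detected in CH, at least 1.28-fold higher. The Wnt effector gene Lef1 was not detected on either array.

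For genes lowered by CH the same comparison was made in the other direction. CH was at least 2-fold below untreated at the bound for 18 of 7699 genes (0.234%). In PCL 3 of them were at least 1.5-fold above CH, 12 were within 1.5-fold, 0 were at least 1.5-fold lower, and 3 were detected on neither array (Mgp, Slc35d3 and the RIKEN clone gene 2610528J11Rik, the last named after its values were seen). Over all 7578 genes, 2.11% were at least 1.5-fold higher in PCL at the bound and 2.64% lower. The CH array defines the lowering and also enters the rise. A gene read too low on it would enter as lowered and then as raised again, which was not tested. The 3 raised again were the tight junction gene Cldn3 (0.92 ± 0.12), the linker histone gene H1f10 (0.81 ± 0.14) and Hrc (0.69 ± 0.14), the last named after its values were seen. Fgf4, an FGF ligand of pluripotent cells, was 5.30 in PCL, 5.80 in CH and 7.13 in untreated cells. In 8 of the 18 genes PCL was at least 2-fold below untreated. The share over 7652 genes was 0.680%, but here too the untreated array both chose the genes and enters the count.

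Among genes downstream of LIF, the feedback inhibitor Socs3 was higher in PCL, while most listed targets differed little. Of 28 compared members of a list of STAT3 targets (35 on the array), 2 were at least 2-fold higher in PCL and 0 lower by as much. Below 0 lay 11 of the 28, and the median was 0.08. The shares over all 7578 genes were 0.330% higher and 0.515% lower, and 3715 lay below 0. Socs3 had log2 levels of 8.94 in PCL, 7.63 in CH, 6.79 in PD, 9.42 in LIF and 7.64 in untreated cells, a difference of 1.31 ± 0.11. The 2 arrays with LIF were the highest, and PD alone was the lowest. Gbx2 was the other member past 2-fold. Bcl3, a cofactor of NF-κB, was at least 1.67-fold higher in PCL. Stat3 itself had a difference of 0.36 ± 0.16, and Sgk1, a kinase gene on the list, one of −0.78 ± 0.07.

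Genes of the naive state were higher in part. Of 14 compared members (25 on the array), 3 were at least 2-fold higher in PCL (Gbx2, Klf2 and Fbxo15) and 0 were at least 2-fold lower. Below 0 lay 4 of the 14, and the median was 0.25. Among all 7578 genes 0.330% were at least 2-fold higher, 0.515% lower by as much, and 3715 lay below 0. Klf2, a Krüppel-like factor of naive cells, had log2 levels of 8.90 in PCL, 7.61 in CH, 7.56 in PD, 7.01 in LIF and 6.73 in untreated cells, a difference of 1.30 ± 0.12. Fbxo15, which is expressed in embryonic stem cells, was 8.32 in PCL and 7.26 in CH (1.05 ± 0.11). Dppa3, a germ cell and naive marker, differed by 0.75 ± 0.14. Esrrb (0.39 ± 0.10), Nanog (0.25 ± 0.11) and Klf5 (0.26 ± 0.07) differed less than 1.5-fold, and Klf4 and Tbx3 were not detected on either array. Dppa4 was lower, at −0.90 ± 0.12.

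Primed epiblast genes were lower in part. Of 21 compared members (27 on the array), 3 were at least 2-fold lower in PCL, Etv4, Fgf5 and Fst, with a median of −0.33. The share of all 7578 genes at least 2-fold lower was 0.515%. Otx2, a factor of the anterior epiblast, differed by −0.37 ± 0.09, Dnmt3b by −0.33 ± 0.07 and Pou3f1 by −0.44 ± 0.12. Lefty1, a secreted Nodal antagonist, was higher in PCL, at 12.26 against 11.31 in CH (0.94 ± 0.07). Among core pluripotency genes Pou5f1 differed by −0.47 ± 0.14 (other probe −0.20) and Utf1 by −0.82 ± 0.12. Sox2 differed by 0.45 ± 0.13 on its brightest probe but by −0.28 on the other, so its direction is unsettled. Tfap2c, an AP-2 factor of germ cells and trophoblast, was 9.76 in PCL, 8.63 in CH, 8.02 in PD, 8.18 in LIF and 7.94 in untreated cells, a difference of 1.13 ± 0.10, and its other probes gave 1.00 to 1.33. Tcf7l1, the TCF repressor, was 10.93 in PCL, 10.26 in CH and 10.91 in untreated cells, a difference of 0.67 ± 0.06.

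**Figure D3:**
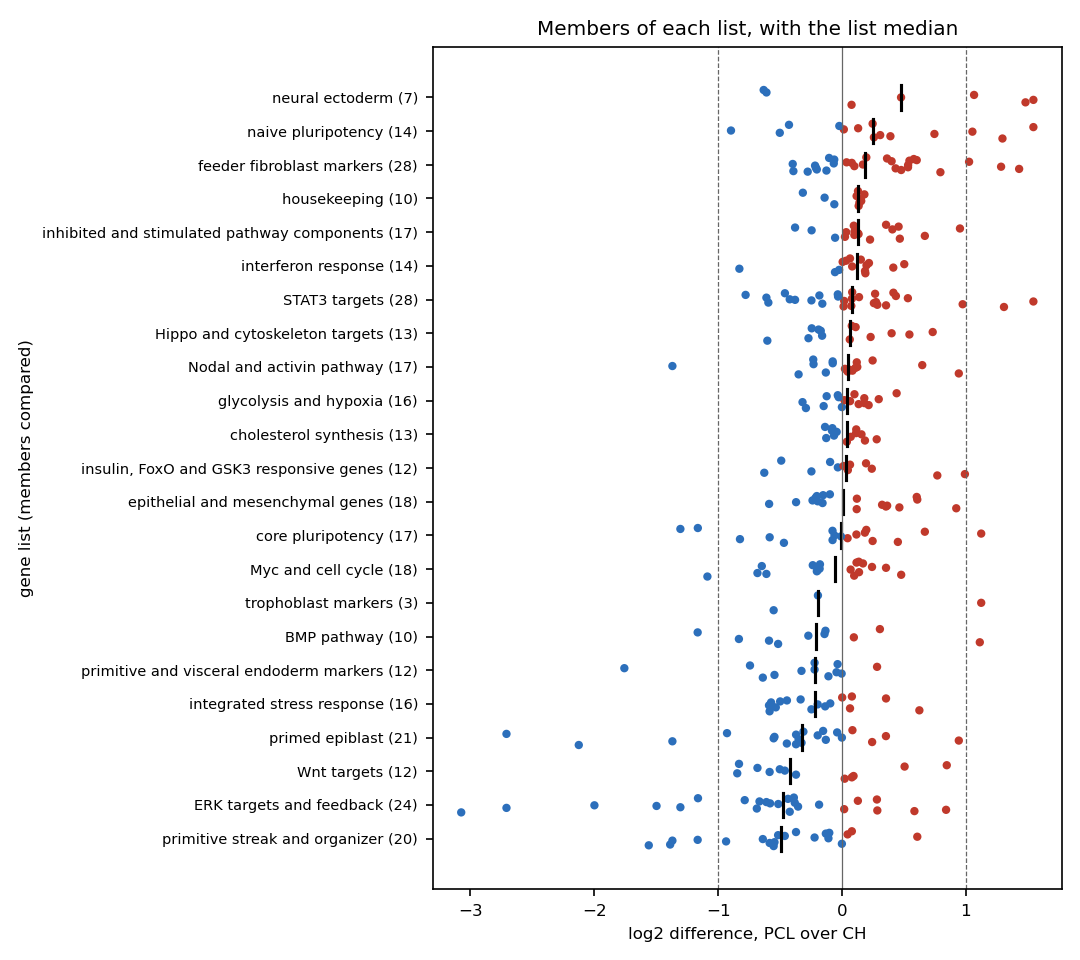
Log2 difference of PCL over CH (horizontal axis) for the compared members of 23 gene lists, whose number stands in brackets; points are genes, coloured by sign, vertical ticks are list medians, and dashed lines mark 2-fold. The ERK list reaches furthest to the left, with 6 of 24 members at least 2-fold lower (0.515% over all genes), and its median is −0.47.

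Lox and Timp3, which act on the extracellular matrix, and some neural genes were among those higher in PCL, while other matrix genes differed in both directions. Lox, which cross-links collagen, had log2 levels of 9.10 in PCL, 7.67 in CH, 9.83 in PD, 8.03 in LIF and 7.71 in untreated cells, a difference of 1.43 ± 0.12. Timp3, an inhibitor of matrix metalloproteinases, was 7.61 in PCL and 6.32 in CH (1.29 ± 0.14), and 7.60 in PD against 6.11 in untreated cells. Tnc, a matrix glycoprotein named after its values were seen, was lower, at 7.27 in PCL and 8.39 in CH (−1.12 ± 0.11; other probes −0.92 to −0.60). The collagen gene Col1a1 differed by 0.80 ± 0.19 and Col4a1 by −0.33 ± 0.09. Lox and Timp3 belong to the feeder fibroblast markers, of which 3 of 28 compared members exceeded CH by 2-fold or more (Lox, Timp3 and Cd248). As far below lay 0, and the median was 0.18. The shares over all 7578 genes were 0.330% higher and 0.515% lower. The summed marker intensities given above were higher with the MEK inhibitor (PCL and PD) than without it. Fewer cells of a type and less RNA per cell cannot be told apart in such cultures, and the part of feeder RNA in these differences was not tested.

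Irx3, a homeobox gene of neural patterning, had log2 levels of 8.77 in PCL, 7.29 in CH, 7.79 in PD, 5.90 in LIF and 6.33 in untreated cells, a difference of 1.48 ± 0.13. Irx5, of the same family, differed by 1.26 ± 0.18, and Phox2a, a homeobox gene of autonomic neurons, by 1.44 ± 0.11. Of 7 neural ectoderm genes compared, 3 were at least 2-fold higher (Gbx2, Irx3 and Crabp2), and 2 were at least 1.5-fold lower in measured values, Crabp1 at −0.61 ± 0.07 and Cyp26a1, which was not detected on 1 of the arrays and at least 1.48-fold lower. Of 12 endoderm markers compared, 11 lay below 0, against 3715 of all 7578 genes, and 4 of the 12 were detected on 1 array only. Their median was −0.22 in measured values, −0.14 at the bounds and −0.076 over the members detected on both arrays. Apoa1, an apolipoprotein, was at least 2.23-fold lower in PCL. Spink1, a trypsin inhibitor gene, was 7.72 in PCL, 9.43 in CH, 7.84 in PD, 6.94 in LIF and 9.37 in untreated cells, a difference of −1.71 ± 0.10.

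PCL over CH shares no array with PD over untreated or LIF over untreated, so these can be set beside each other, although the 2 single-agent comparisons share the untreated array. Of the 39 genes at least 2-fold lower in PCL, PD over untreated was below 0 in 34 (87.2%, against 49.6% of all 7578 genes), with a median of −0.58, and LIF over untreated in 28 (71.8%, against 44.5%), with a median of −0.20. Of the 25 higher genes, PD was above 0 in 23 (92.0%, against 50.3%), with a median of 0.60, and LIF in 16 (64.0%, against 55.3%), with a median of 0.19. The 2 higher genes with PD below untreated were Socs3 and Gbx2. Gbx2 and Fes were below detection in PD, LIF and untreated cells, as were the lower genes Mixl1, Slpi, Slfn3, Rftn2 and Fdxacb1. Ap3b2, Irx5 and Sema3b, all higher, were below detection in LIF and untreated cells. The signs of these differences are unreliable, but the counts include them. Fes, Slfn3, Rftn2 and Fdxacb1 were named after their values were seen. Over all genes the relation was weak: across the 7578 genes, which are not independent replicates, Spearman's rho was 0.09 beside PD and −0.03 beside LIF.

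**Figure D4:**
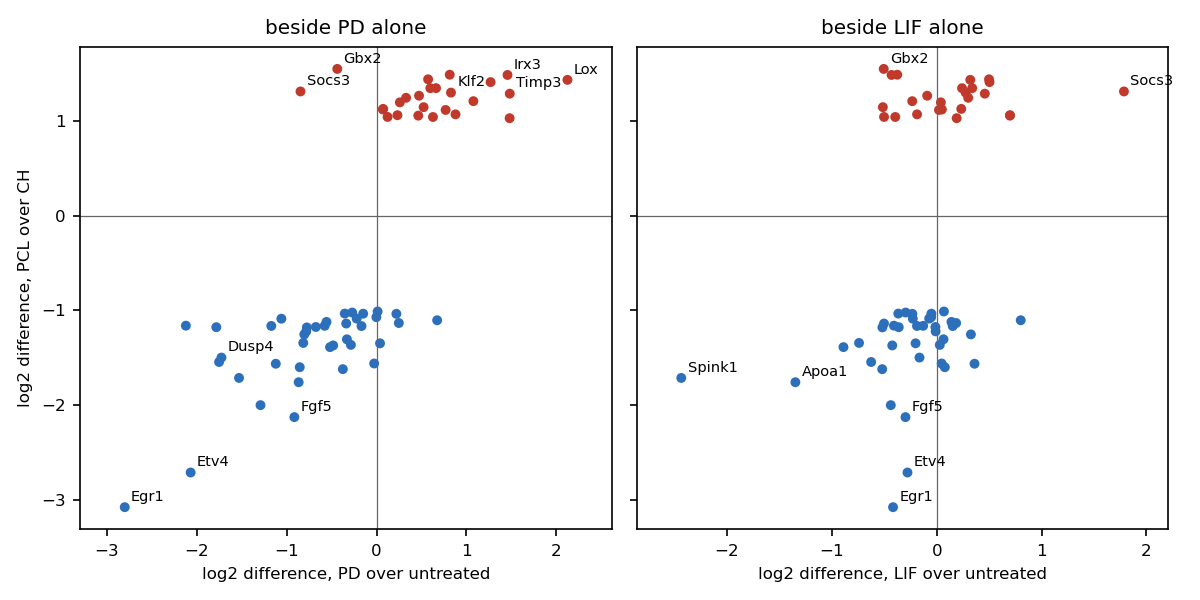
Log2 difference of PCL over CH (vertical axes) for the 39 lower (blue) and 25 higher (red) genes against the measured log2 difference of PD over untreated (left) and LIF over untreated (right). Beside PD, 34 of the 39 lower genes lie left of 0 and 23 of the 25 higher genes right of it. Beside LIF, Socs3 lies furthest right. Genes below detection on both arrays of a single-agent difference are included.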

How the data were processed

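RNA of 5 E3 epiblast stem cell cultures was hybridised to Illumina bead arrays, 1 per condition. The authors deposited for each probe an intensity on a linear scale, its bead standard error and a detection p-value, per the file headers; the deposited detection p-value has steps of 1 in 798 negative controls. The submitters' processing notes name BeadStudio, without a version. The deposited table of processed intensity values has no stated scaling and was an alternative only. Probes were named through the platform annotation (23978 with 1 symbol, 1719 with none, 0 with several).

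Intensities were background-corrected and quantile-normalized over 5 arrays with neqc of limma 3.58.1 (R 4.3.3; offset 16, which pulls dim genes towards 0), giving log2 values from the deposited intensities. Bead errors were propagated to log2. The scripts were tested on simulated data. Tables were handled in Python 3.11.15 with pandas 2.3.3 and numpy 2.4.6, and figures drawn with matplotlib 3.10.9. The number of arrays limits the precision, and no p-value was computed.

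The members, the 23 gene lists, the panel of 59 genes and the rules were chosen with earlier results of these data known. Genes open to naming were the 15 most higher and 15 most lower past 2-fold without clone names, and the panel. They also held up to 25 CH-induced and 15 CH-lowered genes, and up to 5 members of each list with the largest difference. Not all of them are described above. Among those left out were the higher genes Ccn5, Kcnj12, Atp1b2, Arfgap3 and Ccdc80, none detected in CH, and the lower genes Car2 and Sema7a. Genes named outside this rule are marked. Alternatives varied the background correction, offset, scaling, probe choice, detection filter and thresholds.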

Additional observations from a re-analysis of the deposited data

How the results depend on the processing

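No paired analysis was possible because each condition had 1 array. The 42 named genes past 2-fold kept their direction in every setting run for them, and of 119 within 2-fold 5 changed sign (Fgf8, Hprt, Sqle, Stat4 and Tdgf1). Without background correction 7 genes were higher and 9 lower, CH-induced genes numbered 13 with 6 curbed, 6 kept and 1 raised further, 2 were CH-lowered with 0 raised again, and the medians were −0.16 (Wnt) and −0.18 (streak). An offset of 50 gave 8 and 15, 17 induced with 7 curbed, 9 kept and 1 raised, 5 lowered with 1 raised again, and −0.27 (streak). An offset of 1 gave 132 and 166, 85 induced with 41 curbed, 38 kept and 6 raised, 69 lowered with 19 raised again, and −0.62 (Wnt) and −0.78 (streak). The authors' values gave 129 and 142, 87 induced with 42 curbed, 40 kept and 5 raised, 73 lowered with 22 raised again, and −0.64 (ERK) and −0.74 (Wnt). Genes detected on both arrays gave 16 higher and 1 CH-induced gene raised further, which a 2-fold limit for curbed and raised also gave; with no detection filter 30 were CH-lowered with 7 raised again, and the medians were −0.055 (Wnt), −0.14 (streak) and 0.047 (naive). With 1.5-fold in place of 2-fold, 228 were higher and 288 lower in PCL, and 227 were induced with 57 curbed, 161 kept and 9 raised, 195 lowered with 32 raised again. Fst, Gsc, Epha1, Nt5e and Wnt8a were curbed in all 11 settings that kept the 1.5-fold limit for curbed and the 2-fold limit for induced, the reported one included, and Tgfbr3 in 10. With a 2-fold limit for curbed, Wnt8a and Tgfbr3 were not curbed, and 8 of the 32 genes were. Of 180 medians of the other lists, 9 moved past the bead error: primed epiblast −0.18 without background correction and −0.20 with no detection filter, neural ectoderm 0.27, 0.15 (detection p under 0.05), 0.77 (detected on both arrays) and 0.018 (no filter), against 0.48, epithelial genes −0.15 and trophoblast markers 0.29 (both arrays), and BMP genes −0.0058 (no filter). The cause of these shifts was not tested. Correlations with PD and LIF were not run with PCL and CH normalized alone.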

Other observations

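BMP pathway genes differed in both directions, with a median of −0.21 over 10 compared members, which was −0.0058 with no detection filter. Bmp7, a BMP ligand, had log2 levels of 7.65 in PCL and 6.53 in CH (1.11 ± 0.15), while Id1, a BMP target, differed by −0.59 ± 0.18 and Id3 was at least 1.22-fold lower in PCL. Among Myc and cell cycle genes, Mycl was 7.60 in PCL and 8.68 in CH (−1.09 ± 0.09), Ccnd2 differed by −0.68 ± 0.09 and Ccnd1 by −0.61 ± 0.07, and the median over 18 members was −0.05. Myc was not detected on either array.

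Genes of the integrated stress response had a median of −0.22 over 16 members, with Atf4, its central transcription factor, at −0.58 ± 0.09 and the serine synthesis enzyme gene Psat1 at −0.59 ± 0.13, while Ddit3 was at 0.63 ± 0.17. The 12 genes that respond to insulin, FoxO or GSK3 had a median of 0.03, with 7 above and 5 below 0: Txnip differed by 0.77 ± 0.10, Cited2 by 0.99 ± 0.15 and Irs2 by −0.63 ± 0.11. Glycolysis genes (16 members, median 0.04) and cholesterol synthesis genes (13 members, median 0.04) had 0 members past 1.5-fold. Housekeeping genes had a median of 0.13 over 10 members, with Gapdh at 0.14 ± 0.05 and Actb at −0.06 ± 0.06. Of the trophoblast markers, 2 (PCL) and 3 (CH) of 12 on the array were detected, with a summed intensity of 944.5 in PCL and 517.0 in CH. Without Tfap2c the sum was 94.6 in PCL and 136.0 in CH. The median over the 3 compared members, Tfap2c included, was −0.19, with Eomes at −0.55 ± 0.20 and Krt7 at least 1.05-fold lower in PCL.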
